A study of Homo sapiens with 4 samples.

Results

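The *IFIT* genes encode interferon-induced proteins with tetratricopeptide repeats, and 4 of them were described here: *IFIT1*, *IFIT2*, *IFIT3* and *IFIT5*. The 4 genes were taken by name (Entrez genes 3434, 3433, 3437 and 24138) from 46660 gene identifiers in the deposited table, with earlier results of these data known. RNA had been sequenced from 4 cultures of the glioblastoma lines U87MG and U251MG, both long established from human tumors. Per line there was 1 library of control cells and 1 of shFLI1 cells. The shFLI1 cells carried a lentivirus with shRNA against *FLI1*, an ETS family transcription factor for which 2 shRNAs had been designed. The control cells were labelled as empty vector (pGreen), although the sample titles call them shControl and the paper also lists a negative control shRNA. The paper describes infection with polybrene, puromycin selection and collection of mixed stable populations, not single clones, for PCR and protein measurements. It does not say whether the sequenced cells were made in the same way. No uninfected cells were analysed here.

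IFIT proteins are cytoplasmic RNA-binding proteins that block the translation of foreign RNA. IFIT1 binds the cap of RNA that lacks ribose methylation, and IFIT3 and IFIT2 bind to IFIT1 and to each other, with IFIT3 stabilising IFIT1. IFIT5 acts on its own and binds RNA with a 5′ phosphate end, including some transfer RNAs. Transcription of the family is low in most resting cells and rises when type I interferon activates STAT2 and IRF9, which bind the interferon-stimulated response element (ISRE) in the promoters. IRF3 can also drive these promoters directly after viral RNA is sensed.

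The genes lie in 1 cluster on the plus strand of chromosome 10 in GRCh38 and span 119.0 kb. *IFIT2* covers 89302046 to 89309271, *IFIT3* 89327997 to 89340968, *IFIT1* 89392623 to 89406487 and *IFIT5* 89414568 to 89420997. Each gene has 2 exons in its annotated main transcript, and exon 1 holds only 5 coding bases, so that nearly the whole protein is encoded by exon 2. The coding sequences are close in length, at 1434 bases for *IFIT1*, 1416 for *IFIT2*, 1470 for *IFIT3* and 1446 for *IFIT5*.

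RefSeq promoter windows (GRCh38.p14, 250 bases before to 50 bases after the start) were matched for 3 of the 4 genes, with 2 windows for the 2 annotated starts of *IFIT3*. The 160 bases before each start are shown because they hold the ISRE core, the element through which interferon acts on this family. Capitals mark matches to the ISRE core, GAAANNGAAA, which was searched on both strands and here reads as its reverse complement. The lines show *IFIT3* at chr10:89327837-89327996 and, for its second start, chr10:89332369-89332528, *IFIT1* at chr10:89392463-89392622 and *IFIT5* at chr10:89414408-89414567, all on the plus strand.
IFIT3, first start: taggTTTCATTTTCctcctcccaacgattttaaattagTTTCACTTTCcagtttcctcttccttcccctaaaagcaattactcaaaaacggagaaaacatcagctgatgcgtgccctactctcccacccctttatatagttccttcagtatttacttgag
IFIT3, second start: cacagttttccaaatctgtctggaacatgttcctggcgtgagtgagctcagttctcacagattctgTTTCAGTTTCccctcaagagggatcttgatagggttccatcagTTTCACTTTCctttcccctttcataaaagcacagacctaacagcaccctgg
IFIT1: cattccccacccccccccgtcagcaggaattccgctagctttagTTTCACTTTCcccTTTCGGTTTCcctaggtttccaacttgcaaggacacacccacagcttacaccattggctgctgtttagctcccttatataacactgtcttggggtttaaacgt
IFIT5: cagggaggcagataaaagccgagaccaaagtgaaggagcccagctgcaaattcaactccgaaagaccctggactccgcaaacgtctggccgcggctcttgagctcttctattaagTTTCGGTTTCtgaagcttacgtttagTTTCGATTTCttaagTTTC

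All 4 windows held the ISRE core, which was present in 3.57% of the 35116 RefSeq promoter windows of the same length. Counted from the start, the matches lay at -116 to -107 and -103 to -94 in *IFIT1*. In *IFIT3* they lay at -156 to -147 and -122 to -113 before the first start, and at -94 to -85 and -51 to -42 before the second. *IFIT5* had 3 matches, at -45 to -36, at -19 to -10 and across the start at -4 to 6, of which only the first bases fall in the printed line. Windows with 3 or more matches made up 0.037% of all windows. A longer form of the ETS motif, CCGGAA, had 0 matches in the 4 windows, where 17.25% of all windows had a match. A count of 0 in so few windows, which include both of *IFIT3* and none of *IFIT2*, is near that share. The ETS core GGAA, which is contained in the longer form and overlaps the flank of several ISRE matches, occurred 6 times in the *IFIT1* window, 9 and 10 times in the *IFIT3* windows and once in that of *IFIT5*, against a median of 3 over all windows. These are matches of letters and no binding was measured.

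Because each group had 1 library, no spread between replicates could be estimated within a cell line. A gene with at least 10 counts in 1 library was called when its level differed by more than 2-fold, and the 95% intervals in parentheses are Clopper-Pearson intervals that cover counting error only. Levels are estimated counts summed per gene and scaled by TMM to a common library size (CPM, counts per 1000000), a scaling that sets most genes to an equal level across libraries. Library totals ranged from 12229779 to 28891055 counts, and the deeper library of each line was that of the shFLI1 cells. *FLI1* itself went from 9.34 to 2.34 CPM in U87MG cells and from 12.1 to 3.71 CPM in U251MG cells. Of 7 glioma markers, *S100B* was near the floor, with 1, 7, 6 and 11 counts in U87MG control, U87MG shFLI1, U251MG control and U251MG shFLI1 cells, and the other 6 were well counted in every library. Of the markers of other cells, the neuronal list summed to between 12.4 and 30.01 CPM, nearly all of it from *SYT1* (11.7 to 27.5 CPM), with *RBFOX3* at 0 in both U87MG libraries, whereas the leukocyte markers summed to between 0.729 and 1.24 CPM, with *PTPRC* at 0 in both U87MG libraries, and the endothelial markers to between 0.841 and 5.68 CPM.

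All 4 *IFIT* genes had lower RNA levels in shFLI1 cells than in control cells of both cell lines. In U87MG cells, 4 of 4 were more than 2-fold lower, where 4.45% of the 17355 tested genes were lower and 10.0% were higher by that margin. In U251MG cells, 4 of 4 were more than 2-fold lower, where 4.19% of 18222 tested genes were lower and 5.57% were higher. Genes lower by that margin in both cell lines made up 1.45% of the 16384 genes tested in both. The raw counts were also lower for every member in the deeper shFLI1 library. In bulk RNA, fewer cells that express a gene and less RNA per cell cannot be told apart.

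*IFIT1*, the cap-binding member, was the most abundant. Its level was 442 CPM in U87MG control cells, 62.5 CPM in U87MG shFLI1 cells, 967 CPM in U251MG control cells and 52.3 CPM in U251MG shFLI1 cells, from 5058, 1390, 17240 and 1567 counts. Both control libraries were far above both shFLI1 libraries. The log2 fold change was -2.82 (-2.91 to -2.74) in U87MG, which left 14.1% of the control level, and -4.21 (-4.28 to -4.13) in U251MG, which left 5.41%. Among all tested genes ordered from the lowest fold change, *IFIT1* stood at place 94 in U87MG and 26 in U251MG.

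*IFIT3*, which binds and stabilises IFIT1, moved by a similar amount. It measured 161 CPM in U87MG control cells and 27.4 CPM in U87MG shFLI1 cells, and 408 CPM in U251MG control cells and 18.9 CPM in U251MG shFLI1 cells. As for *IFIT1*, the U251MG libraries held both the highest and the lowest value. The log2 fold change of *IFIT3* was -2.56 (-2.69 to -2.43) in U87MG and -4.43 (-4.56 to -4.31) in U251MG, a 5.90-fold and a 21.6-fold lower level. In U251MG cells this was the largest fold change of the family, at place 19 of all tested genes, whereas in U87MG cells it came after that of *IFIT1* and stood at place 115.

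*IFIT2*, the partner of IFIT3 and IFIT1 that is also known for promoting apoptosis, had the fewest counts. Its level was 43.3 CPM in U87MG control cells, 13.1 CPM in U87MG shFLI1 cells, 107 CPM in U251MG control cells and 8.21 CPM in U251MG shFLI1 cells, from 496, 291, 1908 and 246 counts. The order of the 4 libraries was that of *IFIT1* and *IFIT3*. The log2 fold change was -1.72 (-1.94 to -1.52) in U87MG and -3.69 (-3.90 to -3.51) in U251MG, which left 30.2% and 7.68% of the control level.

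*IFIT5*, which binds RNA without the other members, changed least in both cell lines. It measured 88.4 CPM in U87MG control cells, 40.2 CPM in U87MG shFLI1 cells, 201 CPM in U251MG control cells and 49.3 CPM in U251MG shFLI1 cells. Here the lowest library was the U87MG shFLI1 library, unlike the other 3 genes. The log2 fold change was -1.13 (-1.27 to -1.004) in U87MG, close to the 2-fold threshold, and -2.03 (-2.12 to -1.94) in U251MG. In U87MG cells, 45.5% (41.6 to 49.9) of the control level was left, and the call was lost when libraries were scaled by total counts or when the authors' FPKM values were used, with log2 fold changes from -1.17 to -0.92 over 6 alternatives.

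**Figure D1:**
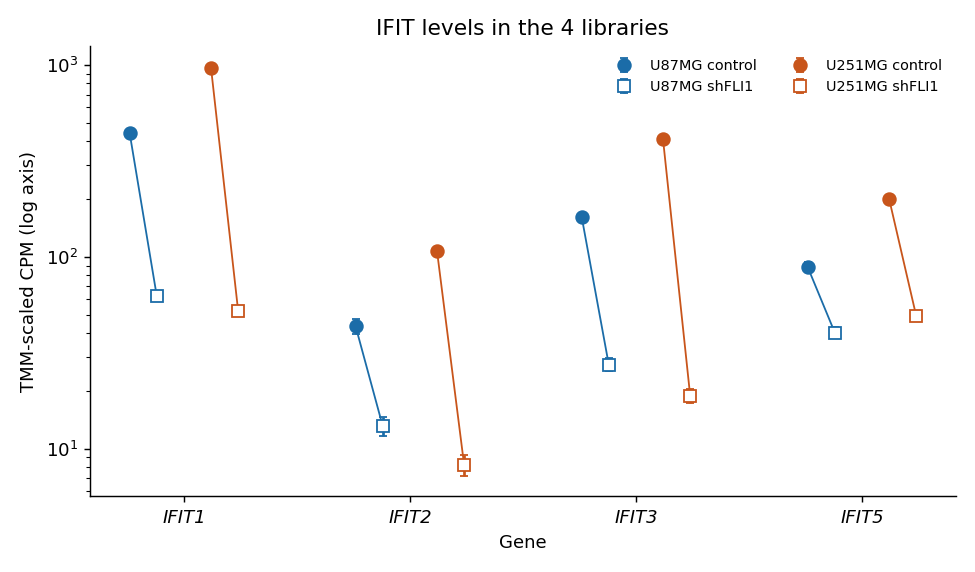
TMM-scaled CPM (log axis) of each *IFIT* gene in the 4 libraries, with control libraries as filled circles, shFLI1 libraries as open squares, a line joining the libraries of 1 cell line and error bars for the 95% counting interval of the single library. In every gene both control libraries lie above both shFLI1 libraries, and the U251MG control library is the highest.

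The 2 cell lines were then taken as replicates of the knockdown in a quasi-likelihood test with edgeR, which fitted all 4 libraries, blocked by cell line, and had 1 residual degree of freedom. All p-values were adjusted by Benjamini-Hochberg over 16649 genes, of which 2.14% were called lower and 0.931% higher, and they measure only the spread between these 2 cell lines. All 4 *IFIT* genes fell, each in 2 of 2 cell lines. The shared log2 fold change in the edgeR test was -3.53 for *IFIT1* (adjusted p = 0.000816), -3.52 for *IFIT3* (adjusted p = 0.00227), -2.74 for *IFIT2* (adjusted p = 0.00815) and -1.61 for *IFIT5* (adjusted p = 0.00543). With DESeq2 in place of edgeR, *IFIT2* no longer passed (adjusted p = 0.058), while the other 3 genes did. Under the other edgeR settings with the block, the highest adjusted p of *IFIT2* was 0.0251. In edgeR without the cell line block, 0 of 4 passed, although all 4 had an unadjusted p below 0.05, with adjusted p from 0.497 for *IFIT1* to 0.861 for *IFIT5*.

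**Figure D2:**
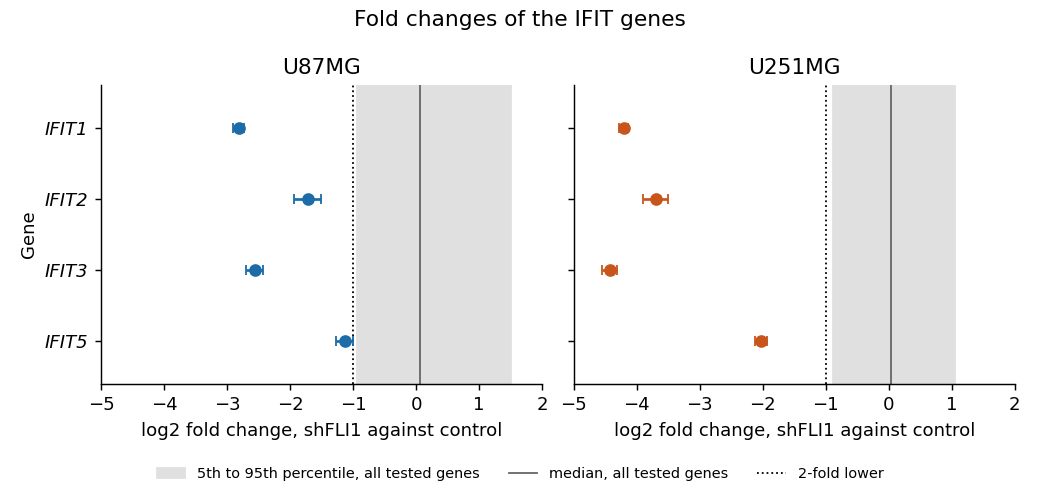
Log2 fold change of each *IFIT* gene, shFLI1 against control, in U87MG (left) and U251MG (right) with 95% counting intervals. The grey band spans the 5th to 95th percentile of all tested genes, the solid line is their median (0.059 and 0.041) and the dotted line marks a 2-fold lower level. All 8 points lie to the left of the band.

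The members differed from each other in the size of the change. In U87MG cells, the log2 fold change of *IFIT1* was lower than that of *IFIT5* by a difference of -1.69 (-1.84 to -1.53), and in U251MG cells by -2.18 (-2.29 to -2.06). *IFIT2* stood between them, with a difference from *IFIT5* of -0.59 (-0.84 to -0.35) in U87MG and of -1.68 (-1.89 to -1.46) in U251MG. *IFIT1* and *IFIT3* exchanged places between the cell lines. Their difference was -0.26 (-0.42 to -0.10) in U87MG, where *IFIT1* was lower, and 0.23 (0.082 to 0.37) in U251MG, where *IFIT3* was lower. These intervals hold counting error only, and the spread between cultures is not in them.

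The change was larger in U251MG than in U87MG cells for all 4 genes. The log2 fold change in U251MG minus that in U87MG was -1.39 (-1.5001 to -1.27) for *IFIT1*, -1.98 (-2.26 to -1.69) for *IFIT2*, -1.87 (-2.05 to -1.69) for *IFIT3* and -0.89 (-1.05 to -0.74) for *IFIT5*. The control libraries already differed. *IFIT* levels in U251MG control cells were 2.19-fold (*IFIT1*) to 2.53-fold (*IFIT3*) those in U87MG control cells. In shFLI1 cells the cell lines lay closer together, with U251MG at 0.837 of the U87MG level for *IFIT1*, 0.628 for *IFIT2*, 0.690 for *IFIT3* and 1.22 for *IFIT5*. Summed over the family, 735 CPM in U87MG control cells and 1684 CPM in U251MG control cells stood against 143 and 129 CPM in the shFLI1 cells. The summed log2 fold change was -2.36 (-2.42 to -2.30) in U87MG and -3.71 (-3.76 to -3.66) in U251MG. With 1 library per group, a difference between the cell lines could not be tested against replicates.

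Levels per transcript length were compared with the authors' FPKM values, summed per gene. In U87MG control cells *IFIT1* measured 102 FPKM, *IFIT3* 70.7, *IFIT5* 21.9 and *IFIT2* 12.9. The order of the genes was the same in U87MG shFLI1 cells and in U251MG control cells. In U251MG shFLI1 cells *IFIT5* (13.6 FPKM) and *IFIT1* (13.4 FPKM) were level within counting error, followed by *IFIT3* (9.19 FPKM) and *IFIT2* (2.72 FPKM). The FPKM of *IFIT1* was thus 4.65 and 4.48 times that of *IFIT5* in the control cells of U87MG and U251MG, but 1.45 and 0.988 times in their shFLI1 cells.

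The make-up of the *IFIT* RNA pool therefore differed between the arms. *IFIT5* made up 10.6% of the summed *IFIT* FPKM in U87MG control cells and 10.3% in U251MG control cells, against 24.8% and 34.9% in shFLI1 cells. *IFIT1* made up 49.1% and 46.1% in control cells and 35.8% and 34.5% in shFLI1 cells. *IFIT3* made up 34.1% and 37.0% in control cells and 29.7% and 23.6% in shFLI1 cells. *IFIT2* stayed the smallest part in all libraries, between 6.23% and 9.68%. With TMM-scaled counts, which are not divided by length, *IFIT3* made up 21.97% and 24.3% in control cells and 19.1% and 14.7% in shFLI1 cells, over 1.5 times lower than by FPKM. The share of *IFIT5* was then 12.03% and 11.9% in control cells and 28.1% and 38.3% in shFLI1 cells, above that of *IFIT3* in both shFLI1 libraries, whereas by FPKM it was above in that of U251MG only. Of the summed FPKM lost from control to shFLI1 cells, *IFIT1* accounted for 52.8% in U87MG and 47.1% in U251MG, and *IFIT3* for 35.3% and 38.1%.

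**Figure D3:**
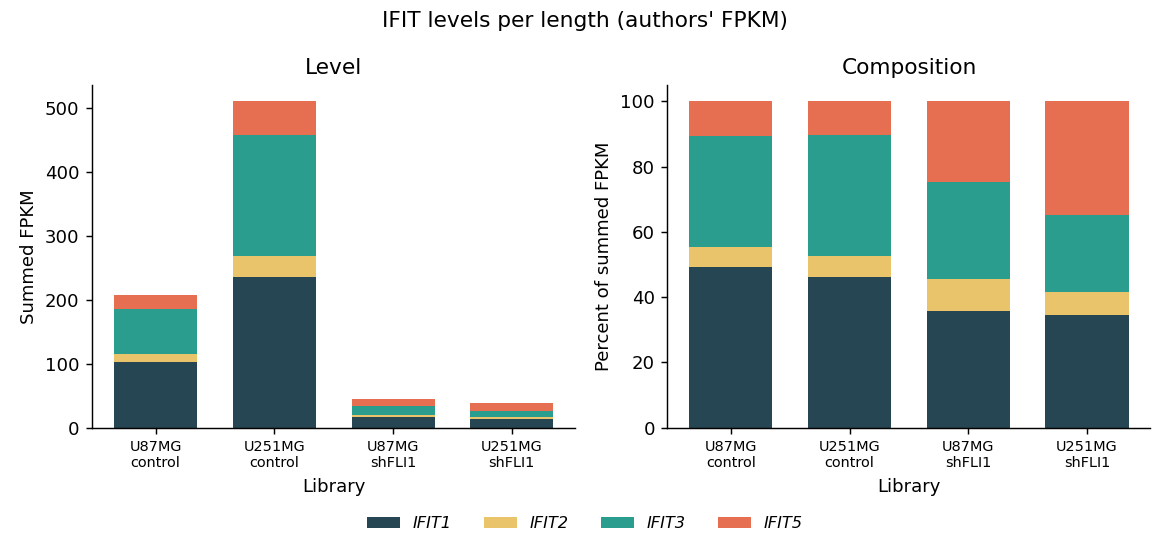
The authors' FPKM of the 4 *IFIT* genes stacked per library, as summed FPKM (left) and as percent of that sum (right). The sum is lower in both shFLI1 libraries, and *IFIT5* takes 24.8% and 34.9% of it there, against 10.6% and 10.3% in the control libraries.

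The table lists 11 linear RNAs for the family, 5 for *IFIT1*, 4 for *IFIT3* and 1 each for *IFIT2* and *IFIT5*. A single RNA (NM_001548) carried between 91.3% and 94.6% of the *IFIT1* counts in every library. *IFIT3* counts were divided mainly between NM_001549 and NM_001031683. In U87MG cells, NM_001031683 took 24.4% of the *IFIT3* counts in the control and 25.1% in the shFLI1 library, and in U251MG cells 15.3% and 11.0%. This share was thus lower in both U251MG libraries than in both U87MG libraries. Counts were estimated per RNA by the authors, so a split between RNAs of 1 gene depends on that estimate.

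*IFIT1B*, a further member of the family within the cluster, had 0, 1, 4 and 1 counts in U87MG control, U87MG shFLI1, U251MG control and U251MG shFLI1 cells and was not tested. *LIPA*, a lysosomal lipase gene on the opposite strand, is annotated from 89213572 to 89414679 and so overlaps *IFIT2*, *IFIT3*, *IFIT1B*, *IFIT1* and the start of *IFIT5*. Whether the counting used strand is not given in the sources used here, so reads of overlapping exons could not be assigned independently. For *LIPA* the log2 fold changes were -0.83 and -0.34 in U87MG and U251MG (edgeR adjusted p = 0.102).

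Of 8 listed neighbours on chromosome 10, 5 were tested, and in edgeR's shared test 2 fell and 0 rose. Over all genes in that test, 2.14% were called lower and 0.931% higher. At an unadjusted p below 0.05, 3 neighbours were lower and 1 was higher, but the share of all genes at that p is not given here. DESeq2 called 1 lower, *ACTA2*, and 0 higher, beside 405 genes called in either direction over all genes. *FAS*, a death receptor gene, had log2 fold changes of -0.92 and -1.58 in U87MG and U251MG (edgeR adjusted p = 0.0296). *ACTA2*, the smooth muscle actin gene beside it, had values of -1.08 and -2.15 (edgeR adjusted p = 0.0138). On the other side of the cluster, *PANK1*, a pantothenate kinase gene, had -0.32 and 0.08 (edgeR adjusted p = 0.845), and the mitotic kinesin gene *KIF20B* had 0.34 and 0.62 (edgeR adjusted p = 0.152). Every *IFIT* gene had a lower fold change than each tested neighbour in U87MG cells, and in U251MG cells *ACTA2*, at -2.15, was below *IFIT5*, at -2.03. In U87MG cells these 2 genes were close, at -1.08 and -1.13.

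**Figure D4:**
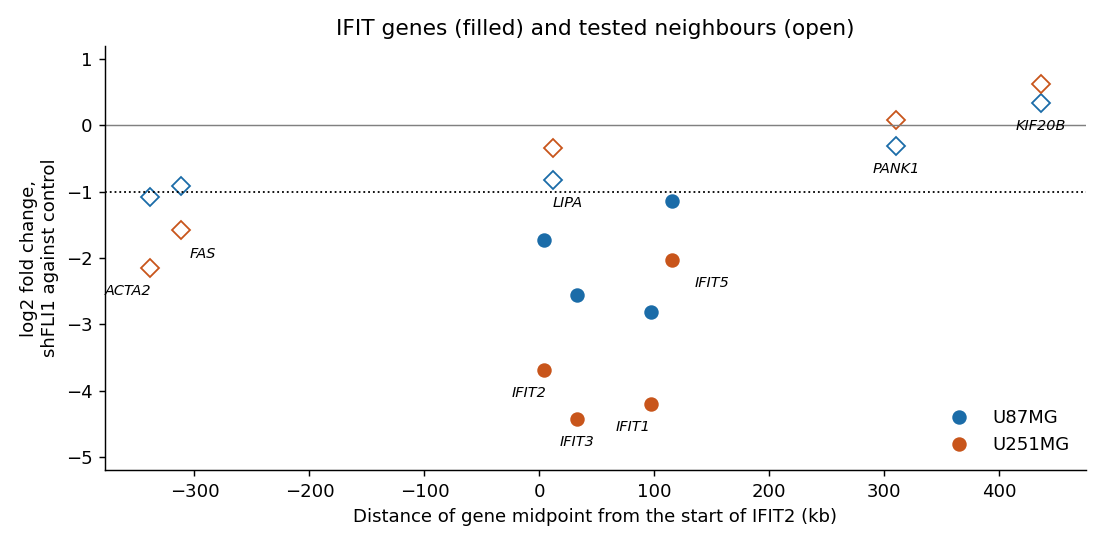
Log2 fold change (shFLI1 against control) of the *IFIT* genes (filled circles) and of the tested neighbours (open diamonds), placed by the distance of each gene's midpoint from the start of *IFIT2* in kb, with U87MG in blue and U251MG in orange and a dotted line at a 2-fold lower level. *LIPA*, which overlaps the cluster, lies at -0.83 and -0.34, above all 4 *IFIT* genes.

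The inducers of the family were barely counted. Of 9 listed interferon genes, 3 were in the table and 0 had enough counts to be tested. *IFNB1* had 0, 2, 3 and 1 counts in U87MG control, U87MG shFLI1, U251MG control and U251MG shFLI1 cells, and *IFNA1* had 3, 5, 3 and 4. A change of interferon RNA was not detectable at this depth.

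Of 12 tested receptor, kinase and factor genes of interferon signalling, 3 were more than 2-fold lower in U87MG and 6 in U251MG, with 0 higher. Over all tested genes, 4.45% in U87MG and 4.19% in U251MG were lower by that margin, and 10.0% and 5.57% higher. In the edgeR test across both cell lines, 5 fell and 0 rose, against 2.14% lower and 0.931% higher over all genes. At an unadjusted p below 0.05, 6 were lower and 1 was higher, but the share of all genes at that p is not given here. DESeq2 called 5 lower and 0 higher, beside 405 genes called in either direction over all genes. The median log2 fold change of this list was -0.59 in U87MG and -0.80 in U251MG, against 0.059 and 0.041 for all tested genes. *STAT2*, which acts at the ISRE together with IRF9, had log2 fold changes of -1.36 and -1.51 (edgeR adjusted p = 0.00123), smaller in size than those of *IFIT1* and *IFIT3*. *IRF9* measured -0.96 and -1.31 (edgeR adjusted p = 0.00562). The lowest of the list was *USP18*, which restrains signalling from the interferon receptor, at -2.26 and -3.04 (edgeR adjusted p = 0.000389). The receptor subunit gene *IFNAR1* was the highest by the mean over the cell lines, at 0.58 and 0.43 (edgeR adjusted p = 0.117).

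Of 12 tested genes listed under RNA sensing, 3 were more than 2-fold lower in U87MG and 7 in U251MG, with 0 higher. The shares of all tested genes were 4.45% and 4.19% lower, and 10.0% and 5.57% higher. In edgeR's shared test 6 fell and 0 rose, against 2.14% and 0.931% of all genes. At an unadjusted p below 0.05, 8 were lower and 1 was higher, but the share of all genes at that p is not given here. DESeq2 called 7 lower and 0 higher, beside 405 genes called in either direction over all genes. The median log2 fold change of the list was -0.79 in U87MG and -1.07 in U251MG. *IFIH1*, the sensor of long double-stranded RNA, was the lowest by the mean over the cell lines at -1.86 and -3.18 (edgeR adjusted p = 0.00229), and the adaptor gene *TRAF3* was the highest at 0.55 and 0.21 (edgeR adjusted p = 0.261).

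Genes of translation initiation and of the mRNA cap showed smaller values. IFIT1 and IFIT2 are known to bind the translation initiation factor eIF3, and 0 of its 13 tested subunits were past 2-fold in either cell line. By that margin, 4.45% of all tested genes were lower and 10.0% higher in U87MG, and 4.19% and 5.57% in U251MG. In the edgeR test, 0 of the 13 were called, 0 had an unadjusted p below 0.05 and DESeq2 called 0. Of all genes in the edgeR test, 2.14% were called lower and 0.931% higher. A count of 0 in a list this short is near those shares. The values of the eIF3 subunits ranged, by the mean over the cell lines, from *EIF3K* (-0.24 and -0.05) to *EIF3A* (0.24 and 0.21). Of 6 tested genes that methylate or bind the mRNA cap, 0 were past 2-fold, and 1 fell in the edgeR test. That gene was *CMTR1*, which adds the ribose methyl group whose absence IFIT1 recognises, at -0.82 and -0.78 (edgeR adjusted p = 0.0169). At an unadjusted p below 0.05, 1 of the 6 was lower and 1 was higher, and DESeq2 called 1 lower and 0 higher. The share of all genes at that unadjusted p is not given here. The cap guanine methyltransferase gene *RNMT* was the highest by the same mean at 0.67 and 0.25 (edgeR adjusted p = 0.199).

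Compared with 29 other tested interferon-stimulated effector genes, the *IFIT* genes lay within the range of the list. Of these effectors, 25 were more than 2-fold lower in U87MG and 29 in U251MG, with medians of -2.13 and -3.23. Of all tested genes, 4.45% and 4.19% were lower by that margin. Where 2.14% of all genes fell in the edgeR test, 27 of the 29 effectors did. By the mean over the cell lines, they ranged from *RSAD2*, which encodes viperin, at -4.69 and -5.65 (edgeR adjusted p = 3.93e-05) to *PARP14* at -0.28 and -1.58 (edgeR adjusted p = 0.12). In U87MG cells, 8 effectors had a lower fold change than *IFIT1*, 9 than *IFIT3*, 19 than *IFIT2* and 25 than *IFIT5*. In U251MG cells these numbers were 7, 5, 11 and 23. *IFIT2* thus stood higher in the order in U87MG than in U251MG, and *IFIT5* was near its upper end in both. Of the 25 effectors with a promoter window, 19 held the ISRE core and 2 held CCGGAA in at least 1 window. Counted in the same way, 1195 of all 27305 genes with a window held the ISRE core and 5487 held CCGGAA.

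**Figure D5:**
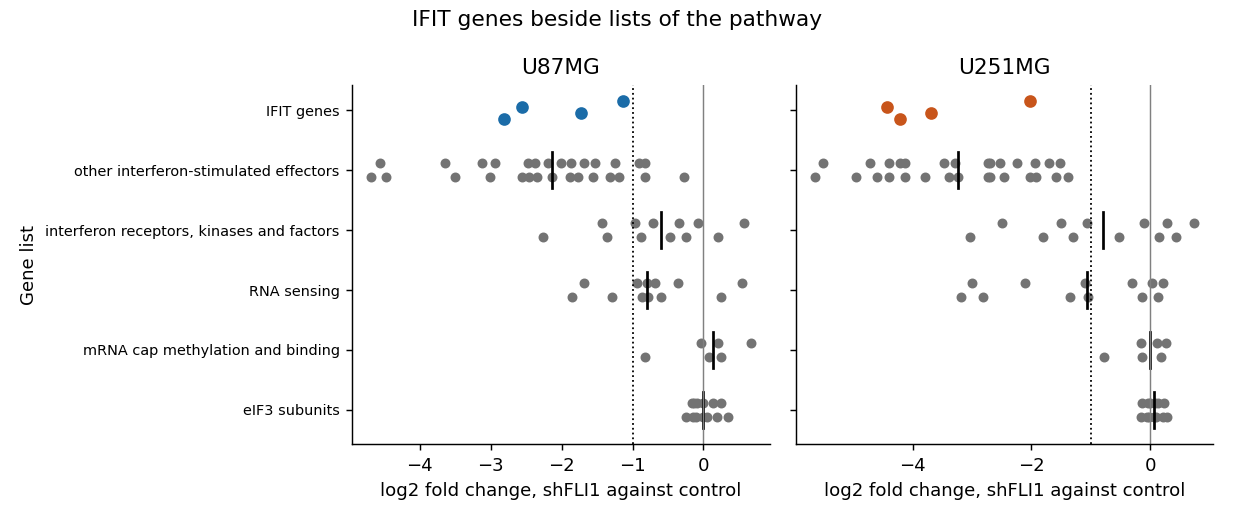
Log2 fold change (shFLI1 against control) of the *IFIT* genes (coloured points) and of each gene of 5 lists (grey points, with a black bar at the list's median) in U87MG (left) and U251MG (right), with a dotted line at a 2-fold lower level. The *IFIT* genes lie among the other interferon-stimulated effectors, whose medians are -2.13 and -3.23, while the eIF3 subunits lie near 0.

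The genes whose profile over the 4 libraries was most like each member were found by the Euclidean distance between log2 CPM profiles, each centred on its own mean, among 11141 genes with a mean of at least 5 CPM. The nearest gene to *IFIT1* was *TAP1*, a peptide transporter gene (distance 0.241), followed by *IFIT3* (0.246) and *UBE2L6*, the ISG15-conjugating enzyme gene (0.399). *IFIT3* was nearest to *IFIT1* (0.246), *OASL* (0.411) and *TAP1* (0.432). *IFIT2* was nearest to *IFI44L* (0.452), *SHFL* (0.587) and *USP18* (0.634). For *IFIT5* the nearest were *HLA-E* (0.137), *IFI30* (0.183) and *SAMHD1* (0.200), none of which was among those of the other 3 members. *HLA-E* had log2 fold changes of -1.04 and -1.92, beside -1.13 and -2.03 for *IFIT5*. Within the family, *IFIT5* stood 1.97 from *IFIT1* and 2.001 from *IFIT3*, whereas *IFIT2* stood 0.868 and 0.793 from them. These distances rest on 4 libraries that share their depth and scaling with every gene compared.

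*GFAP*, the astrocyte filament gene, was the only 1 of 6 tested glioma markers called in the edgeR test. Over all genes in that test, 2.14% were called lower and 0.931% higher. At an unadjusted p below 0.05, 3 of these markers were higher and 0 lower, and DESeq2 called 1 higher and 0 lower. The log2 fold changes of *GFAP* were 1.32 and 2.19 in U87MG and U251MG (edgeR adjusted p = 0.0076), opposite in direction to the *IFIT* genes. The part of depth or cell state in the *IFIT* values was not tested. Scaling by total counts in place of TMM moved the median over all tested genes, on the log2 scale, to 0.218 in U87MG and 0.113 in U251MG.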

How the data were processed

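RNA-seq libraries of U87MG and U251MG cells, 1 per group, were assigned to groups from the sample titles. The authors aligned reads to GRCh38 (GRCh38.p13 in the submitters' processing notes) with HISAT2, and StringTie gave the FPKM. The deposited table gives an estimated count, not normalized, and an FPKM for each RNA. The tool behind the counts is not given in the sources used here. Estimated counts can be divided between RNAs and paralogs. Circular RNAs (31346) and 10 columns of TPM and means were not used.

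Counts of 185042 linear RNAs were summed over 46660 gene identifiers (23775 with a RefSeq symbol) and rounded. Fold changes used TMM factors over all genes and a prior count of 2 (R 4.3.3, edgeR 4.0.16). The shared test used genes kept by filterByExpr, TMM over those genes, the cell line as a block and Benjamini-Hochberg adjustment at 0.05. DESeq2 1.42.0 was an alternative, beside other scalings, filters and FPKM with pseudocounts of 1 and 0.1. The scripts were tested on simulated data. Reads are not independent molecules, so intervals cover counting error only.

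The members, gene lists and motifs were chosen with earlier results of these data known. Genes named were the members, *FLI1*, the 3 genes most like each member, the lowest and highest gene of each list by mean log2 fold change, and the tested neighbours; *STAT2*, *IRF9*, the interferon genes and *IFIT1B* were named for their role. Gene positions are from RefSeq, and the exons, coding bases and strand of the members are from GENCODE.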

Additional observations from a re-analysis of the deposited data

How the results depend on the processing

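No member's fold change changed direction in 48 recalculations over both cell lines, of which 32 stayed within the counting interval and 16 moved beyond it. These included a recalculation on the most abundant RNA of each gene. It could hardly move *IFIT2* and *IFIT5*, as each has 1 RNA. Of 16 shares of the *IFIT* sum, 12 moved when TMM-scaled counts replaced FPKM. In U87MG, 3 of 4 members were past 2-fold with total counts and with FPKM, *IFIT5* being the exception. The summed *IFIT* log2 fold change in U87MG was -2.20 with total counts, -2.18 with FPKM and a pseudocount of 1 and -2.21 with 0.1, and in U251MG -3.64 with total counts. Its difference between cell lines was then -1.44, -1.498 and -1.51. Requiring at least 100 counts left 265 lower and 290 higher genes in U87MG and 265 and 135 in U251MG, and requiring 1 count gave 2218, 3983, 2567 and 2744, where the filter alone changes the genes tested.

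Without the cell line as a replicate block, 0 members and 0 of 16649 genes passed in edgeR, although 725 genes including 4 members had an unadjusted p below 0.05. With the block, 512 genes passed, 1304 with a filter of 1 count, and 364 with total counts. TMM factors over all genes, chosen after seeing the data, gave 362, and DESeq2 405 genes and 3 members. Leaving out a replicate was not possible, since each group has 1 library. The low counts of *FLI1* and the interferon genes limit what depth can show there.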
